A study of Homo sapiens with 6 samples.

Results

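Transcripts of 43 genes that mark differentiated intestinal epithelium were followed in SW480 cells, an established human colorectal adenocarcinoma line. The genes were taken from a list of symbols for the absorptive brush border, colonocyte transport, goblet cell mucus, enteroendocrine granules and epithelial surface, and were matched to the count tables through Ensembl identifiers. Of these 43 genes, 42 were matched among 63677 identifiers. FCGBP was not analysed here. Expression passed the filter on low counts, and could be tested, for 15 of them, among 14286 tested genes in all.

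The cells carried a lentiviral vector under a doxycycline-inducible promoter that encoded either POU5F1B, a retrogene copy of the pluripotency factor gene POU5F1, or green fluorescent protein (GFP) as the control. Both groups received 1 µg/mL doxycycline for 72 h before harvest, and each had 3 poly(A) RNA libraries numbered 1 to 3. Whether the numbers marked separate transductions, cultures or days was not stated, so the p-values measure only the spread between these libraries, which may be technical. The comparison asked how induction of POU5F1B changed RNA levels in these cells.

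The colonic surface epithelium holds absorptive colonocytes, goblet cells and scattered enteroendocrine cells. Colonocytes carry a brush border, in which villin, espin and ezrin bundle actin and anchor it to the membrane of each microvillus, and protocadherins link the microvillus tips. Goblet cells secrete gel-forming mucins and trefoil peptides, enteroendocrine cells store hormones in chromogranin-containing granules, and colorectal cancer cell lines keep these programmes to very different degrees.

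The libraries held between 10767947 and 12787637 counts, at which 3 counts corresponded to 0.228 to 0.278 CPM (counts scaled to a common library size, on totals scaled by TMM, the trimmed mean of M-values). The POU5F1B transcript was counted 6, 5 and 1 times in GFP replicates 1 to 3 and 15027, 11393 and 1458 times in POU5F1B replicates 1 to 3, so that POU5F1B replicate 3 carried less of the transcript than replicates 1 and 2 (121 against 1180 and 1054 CPM). Each replicate 3 library differed from replicates 1 and 2 of its group, but only partly in the same way. Across the 14286 tested genes, these log2 differences correlated at 0.165 between the groups. Both replicate 3 libraries lay above the other 4 for 13.8% of tested genes and below them for 11%. The fits of tested members are therefore given with and without replicate 3. Of the epithelial marker genes EPCAM, CDH1, KRT8, KRT18, KRT19 and CDX2, all 6 were expressed above the filter, but not all were steady. The ratio of replicate 3 to replicates 1 and 2 was 5.87 in GFP and 0.775 in POU5F1B for EPCAM. For KRT8 it was 1.38 in GFP and 1.14 in POU5F1B. CDH1 was the only epithelial marker whose groups did not overlap, and it was higher in POU5F1B. Leukocyte marker transcripts summed to at most 2.19 CPM in any library, with CD68 at 0. The endothelial markers VWF and CDH5 summed to 1.21 to 6.52 CPM. COL1A1, a fibroblast collagen gene, was read at 1681, 1553 and 194 counts in GFP and 86, 60 and 114 counts in POU5F1B. COL3A1 was at 0 in every library. LUM, another fibroblast marker, had 34 counts in GFP replicate 3, 5 in POU5F1B replicate 3 and 0 in replicates 1 and 2. The 5 fibroblast markers together gave 20.1 to 143 CPM in GFP and 5.74 to 10.0 CPM in POU5F1B. The part of cells expressing COL1A1 or LUM in the results was not tested. In these bulk samples, fewer cells of a type and less RNA per cell cannot be told apart.

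Much of the differentiation list was silent in this line. No read was counted in any library for 7 members: the disaccharidase SI, the carbonic anhydrases CA1 and CA4, the chloride-bicarbonate exchanger SLC26A3, the water channel AQP8, uroguanylin (GUCA2B) and the goblet cell peptide SPINK4. A zero count allowed a level of up to 0.278 CPM in the shallowest library, for counting error only. A further 5 members, the fatty acid binding protein FABP1, the trefoil peptide TFF1, the lectin REG4, the mucin-folding isomerase AGR2 and the immunoglobulin transporter PIGR, never exceeded 3 counts. These transport, goblet and other genes were thus at or near the limit of detection in both groups, and no change was detectable for them at this depth.

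The 15 tested members differed widely in level when counts were divided by exon length. EZR, which encodes ezrin, had the highest mean over the 6 libraries at 165 CPM per kilobase of exon. The membrane mucin gene MUC13 followed at 19.1 CPM per kilobase, then LCN2 at 10.8, VIL1 at 10.6, USH1C at 6.74 and CHGA at 5.02 CPM per kilobase. EZR stood above the others in every library, but the order of MUC13, LCN2, VIL1, USH1C and CHGA changed from library to library, with VIL1 and USH1C above MUC13 in GFP replicate 3.

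**Figure D1:**
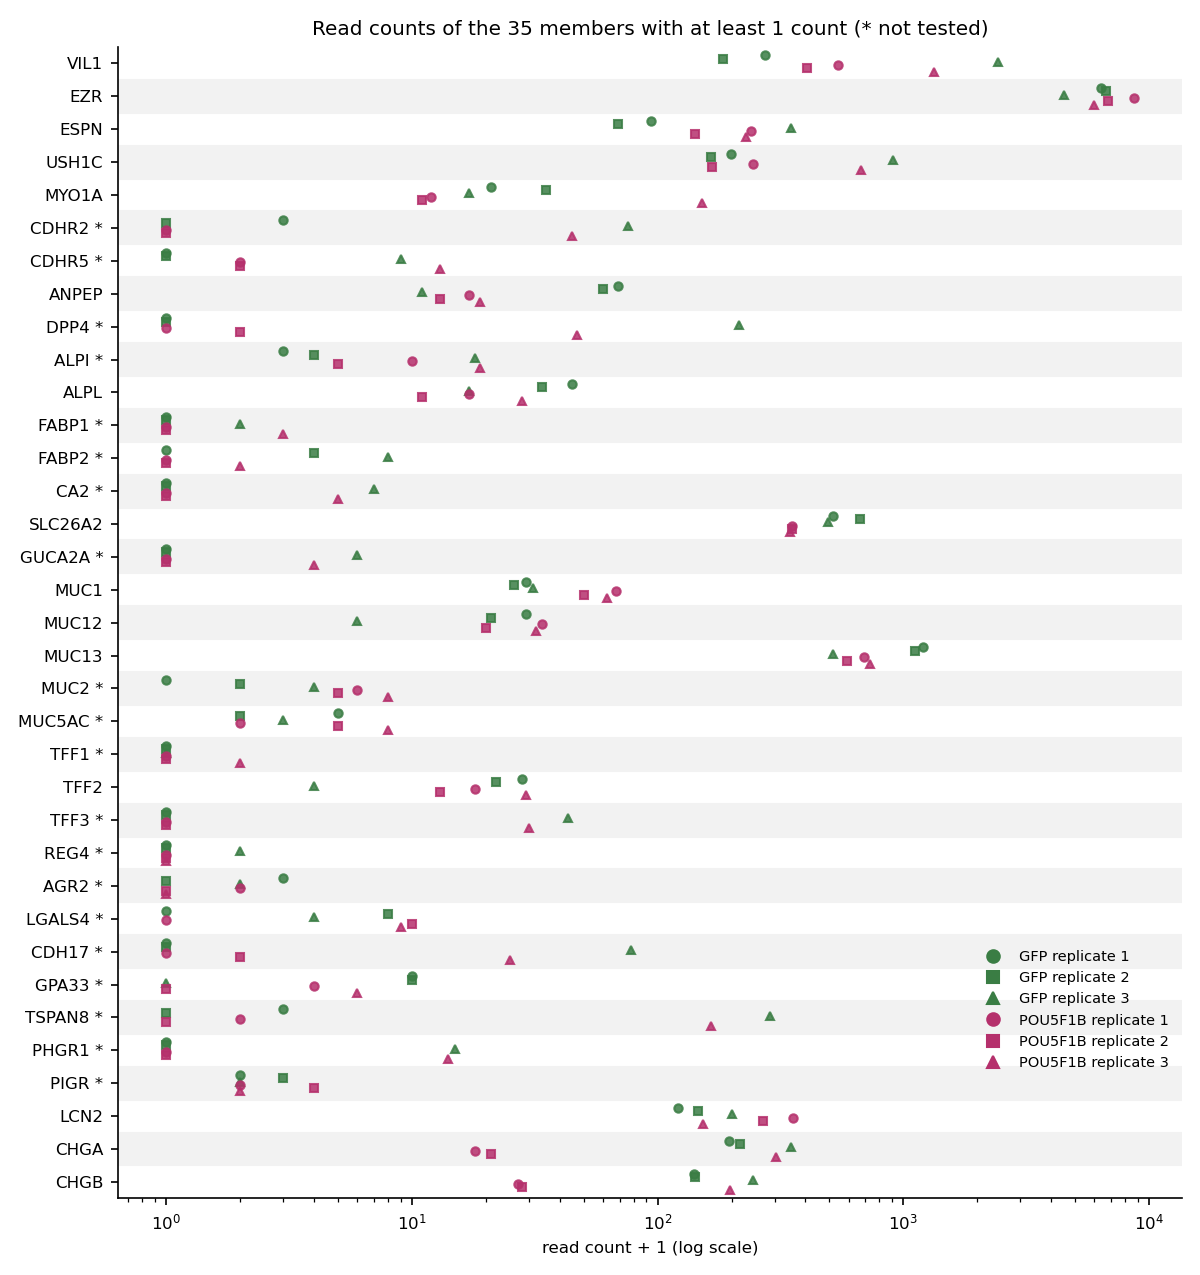
Read count plus 1 (log axis) of the 35 members with at least 1 count, one point per library, with GFP in green, POU5F1B in magenta and replicate numbers by symbol (circle 1, square 2, triangle 3). Members with an asterisk did not pass the filter. TSPAN8, DPP4, CDH17, CDHR2 and TFF3 had at most 2 counts in every replicate 1 and 2 library and 24 or more in both replicate 3 libraries.

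With all 6 libraries, none of the 15 members passed the thresholds of the limma voom test (Benjamini-Hochberg adjusted p under 0.05 and a fold change above 2), and none of the 14286 tested genes did (0%). The smallest adjusted p-value of a member was 0.209 in limma voom. At an unadjusted p under 0.05, 1 member was higher in POU5F1B and 2 were lower, against 6.07% and 5.82% of all tested genes (867 and 831 genes). The 3 values of the groups did not overlap for 1 member on the higher side and 1 on the lower, where 10.2% and 9.21% of all genes had groups apart in those directions. The quasi-likelihood test of edgeR called 0 genes and the Wald test of DESeq2 called 232, of which 1 was a member, MUC1. DESeq2 gave no adjusted p-value for VIL1 and CHGA, so neither could be called there. The median log2 fold change of the members was 0.25, with 9 higher and 6 lower, beside -0.02 for all tested genes. This median turned to -0.26 in edgeR and -0.24 in DESeq2, so the list as a whole had no steady direction.

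Restricted to replicates 1 and 2, the same test called 4 members higher (VIL1, ESPN, MUC1 and LCN2) and 5 lower (MYO1A, ANPEP, ALPL, CHGA and CHGB) in POU5F1B, out of 15. Among all tested genes 3.21% were called higher and 5.15% lower. The median log2 fold change of the members was then -0.62, beside -0.005 for all tested genes. Leaving out GFP replicate 3 alone gave 3 called members (ESPN, ANPEP and MUC1), whereas leaving out any other single library gave 0. Among all 14286 tested genes, 595 were called without GFP replicate 3, and 0 to 5 without any other single library. All calls described below as made in replicates 1 and 2 rest on 2 libraries per group. Of the 15 members, 6 had the same sign in all 3 same-numbered pairs, as did 5241 of the 14286 tested genes.

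**Figure D2:**
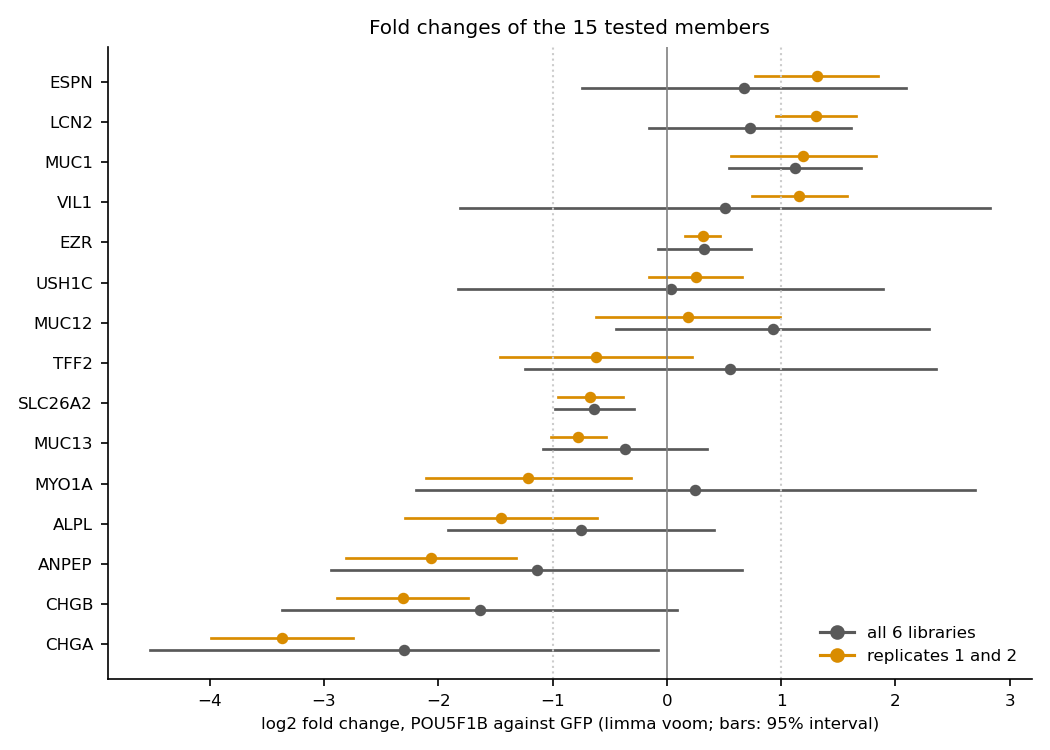
Log2 fold change of POU5F1B against GFP for the 15 tested members (points) with the 95% interval of limma voom (bars), for all 6 libraries in grey and for replicates 1 and 2 in orange; dotted lines mark 2-fold. In the fit of all 6 libraries, the intervals of MUC1, SLC26A2 and CHGA lay clear of 0, and those of MYO1A, VIL1 and CHGA were the widest.

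Among the microvillus genes, the core and linker transcripts VIL1, ESPN and EZR were measured in every library. VIL1 encodes villin, the actin-bundling protein by which the intestinal brush border is usually recognised, and lies at chr2:219283844-219318018 on the plus strand (hg19). It was read at 23.0, 14.0 and 210 CPM in GFP replicates 1, 2 and 3 and at 42.6, 37.6 and 111 CPM in POU5F1B replicates 1, 2 and 3. Replicate 3 was thus the highest library of each group, and GFP replicate 3 the highest of all. In all 6 libraries the log2 fold change was 0.51 ± 0.97 (SE; adjusted p = 0.869, limma voom), and it was -0.37 in edgeR. In replicates 1 and 2 VIL1 rose by 1.16 ± 0.19 on the log2 scale (adjusted p = 0.0007, limma voom). The exons of VIL1 share 44.2% of their bases with USP37 on the opposite strand, and the strand setting of the counting was not stated. USP37 itself had 366, 412 and 545 counts in GFP and 445, 449 and 307 in POU5F1B. Its part in the VIL1 counts was not tested.

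ESPN, which encodes the actin bundler espin, gave 7.82, 5.17 and 30.1 CPM in GFP and 18.8, 13.0 and 18.9 CPM in POU5F1B. ESPN has a near-identical pseudogene, ESPNP, and shares 5.52% of its exon bases with TNFRSF25 on the opposite strand, so its counts are uncertain. Only GFP replicate 3 broke an otherwise higher POU5F1B group. The log2 fold change was 0.67 ± 0.60 over all 6 libraries (adjusted p = 0.685, limma voom), and ESPN rose by 1.31 ± 0.25 in replicates 1 and 2 (adjusted p = 0.0019, limma voom). EZR, the ezrin gene that links actin to the membrane, gave 535, 511 and 393 CPM in GFP and 681, 629 and 497 CPM in POU5F1B. Each POU5F1B library was above the GFP library of the same number, but POU5F1B replicate 3 lay below GFP replicates 1 and 2, and the log2 fold change of 0.33 ± 0.17 missed the threshold (adjusted p = 0.495, limma voom). In replicates 1 and 2 the EZR difference was 0.31 ± 0.07 (adjusted p = 0.0062, limma voom), under the 2-fold limit.

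USH1C, which encodes the scaffold harmonin that ties the tip-link protocadherins to actin, was at 16.7, 12.5 and 78.9 CPM in GFP and at 19.1, 15.4 and 55.8 CPM in POU5F1B. The groups were close within each replicate number, and replicate 3 was high in both. The log2 fold change was 0.04 ± 0.78 (adjusted p = 0.990, limma voom), with a 95% interval from -1.82 to 1.90, and 0.25 ± 0.19 in replicates 1 and 2 (adjusted p = 0.345). MYO1A, the brush-border myosin gene, had 20, 34 and 16 counts in GFP and 11, 10 and 150 counts in POU5F1B. POU5F1B replicate 3 therefore stood alone above the other 5 libraries. The all-library log2 fold change of MYO1A was 0.25 ± 1.03 (adjusted p = 0.95, limma voom), against a called fall of 1.21 ± 0.41 in replicates 1 and 2 (adjusted p = 0.0423, limma voom). Both tip-link protocadherin genes were below the filter. CDHR2 had 2, 0 and 75 counts in GFP and 0, 0 and 44 in POU5F1B, and CDHR5 had 0, 0 and 8 counts in GFP and 1, 1 and 12 in POU5F1B.

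Of the brush-border hydrolases, the peptidase gene ANPEP (aminopeptidase N, chr15:90328126-90358633, minus strand, hg19) had 68, 59 and 10 counts in GFP and 16, 12 and 18 in POU5F1B. GFP replicate 3 was the lowest of the 6 libraries, below every POU5F1B library. The log2 fold change was -1.14 ± 0.76 over all libraries (adjusted p = 0.591, limma voom), and ANPEP fell by 2.06 ± 0.34 in replicates 1 and 2 (adjusted p = 0.0008, limma voom). ALPL, the tissue-nonspecific alkaline phosphatase gene, gave 44, 33 and 16 counts in GFP and 16, 10 and 27 counts in POU5F1B. It took the same form, with GFP replicate 3 among the POU5F1B values. Its log2 fold change was -0.75 ± 0.49 over all libraries (adjusted p = 0.586) and it fell by 1.45 ± 0.39 in replicates 1 and 2 (adjusted p = 0.0137, limma voom). ALPI, the intestinal alkaline phosphatase gene, had 2, 3 and 17 counts in GFP and 9, 4 and 18 in POU5F1B and was not tested. Its counts are uncertain because related phosphatase genes lie beside it.

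In the transport group the sulfate transporter gene SLC26A2 (chr5:149340321-149373018, plus strand, hg19) was the sole member above the filter. It gave 43.6, 50.8 and 42.9 CPM in GFP and 27.6, 32.7 and 28.6 CPM in POU5F1B. All 3 POU5F1B libraries lay below all 3 GFP libraries, and the difference between same-numbered libraries was -0.65, -0.63 and -0.58 on the log2 scale. The fitted log2 fold change was -0.63 ± 0.14 (unadjusted p = 0.0035, adjusted p = 0.222, limma voom) and -0.67 ± 0.13 in replicates 1 and 2 (adjusted p = 0.0024), below a 2-fold change in both. The other transport members with any read, CA2 and GUCA2A, had at most 6 counts, all of them in replicate 3 libraries.

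Of the membrane mucins, MUC1 (chr1:155158300-155162707, minus strand, hg19), a transmembrane mucin of the apical surface, had 28, 25 and 30 counts in GFP and 67, 49 and 61 in POU5F1B. These were 2.35, 1.90 and 2.60 CPM in GFP and 5.26, 4.53 and 5.07 CPM in POU5F1B, with no overlap between the groups and little spread within them, replicate 3 included. MUC1 had the smallest adjusted p-value of the members (log2 fold change 1.12 ± 0.24, unadjusted p = 0.0027, adjusted p = 0.209, limma voom). In replicates 1 and 2 it rose by 1.19 ± 0.29 (adjusted p = 0.0086, limma voom). Over 16 alternative settings its log2 fold change stayed between 1.00 and 1.27.

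MUC13, the most abundant mucin transcript per kilobase here, gave 101, 85.1 and 44.6 CPM in GFP and 54.5, 54.6 and 60.9 CPM in POU5F1B. GFP replicate 3 was again lower than the POU5F1B libraries. The log2 fold change was -0.37 ± 0.30 over all libraries (adjusted p = 0.665, limma voom) and -0.77 ± 0.11 in replicates 1 and 2 (adjusted p = 0.0003, limma voom), short of 2-fold. MUC12 had between 5 and 33 counts and a log2 fold change of 0.93 ± 0.58 over all libraries (adjusted p = 0.569, limma voom) and 0.19 ± 0.37 in replicates 1 and 2 (adjusted p = 0.739).

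Goblet cell secretory genes stayed low. TFF2, a trefoil peptide gene, had 27, 21 and 3 counts in GFP and 17, 12 and 28 in POU5F1B (log2 fold change 0.56 ± 0.76, adjusted p = 0.806, limma voom). Without replicate 3 its log2 fold change had the opposite sign, -0.62 ± 0.39 (adjusted p = 0.252, limma voom). The gel-forming mucin gene MUC2 had 0, 1 and 3 counts in GFP and 5, 4 and 7 in POU5F1B, and MUC5AC had 1 to 7 counts per library; neither passed the filter. The few MUC2 counts did not overlap between the groups (unadjusted p = 0.0201 and adjusted p = 0.450 in limma voom with all genes of at least 1 count). TFF3, the trefoil peptide gene of intestinal goblet cells, was at 0 counts in all 4 replicate 1 and 2 libraries and at 42 and 29 counts in replicate 3 of GFP and POU5F1B.

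LCN2, the gene of the iron-siderophore binding protein lipocalin 2, gave 10.1, 11.0 and 17.3 CPM in GFP and 28.0, 24.8 and 12.6 CPM in POU5F1B. The replicate 3 libraries lay between the groups in reversed order. Over all libraries the log2 fold change was 0.73 ± 0.37 (adjusted p = 0.489, limma voom). In replicates 1 and 2 LCN2 rose by 1.31 ± 0.16 (adjusted p = 9.00e-05, limma voom).

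The enteroendocrine granule genes CHGA and CHGB, which encode chromogranin A and secretogranin I, moved together. CHGA (chr14:93389495-93401630, plus strand, hg19) had 194, 215 and 347 counts in GFP and 17, 20 and 303 in POU5F1B, which were 16.3, 16.3 and 30.1 CPM against 1.33, 1.85 and 25.2 CPM. CHGB (chr20:5892156-5905999, plus strand, hg19) had 140, 141 and 243 counts in GFP and 26, 27 and 197 in POU5F1B. Thus POU5F1B replicates 1 and 2 were low for both genes, while POU5F1B replicate 3 was above GFP replicates 1 and 2. In replicates 1 and 2, CHGA fell by 3.37 ± 0.29 on the log2 scale (adjusted p = 4.78e-06, limma voom) and CHGB fell by 2.31 ± 0.26 (adjusted p = 4.76e-05). Between the replicate 3 libraries alone, the GFP to POU5F1B ratio was 1.20 for CHGA (95% counting interval 1.02 to 1.40) and 1.29 for CHGB (1.06 to 1.56). Over all 6 libraries the log2 fold changes were -2.30 ± 0.93 for CHGA (unadjusted p = 0.0443, adjusted p = 0.402) and -1.64 ± 0.73 for CHGB (adjusted p = 0.434, limma voom). The POU5F1B transcript was at 121 CPM in the replicate 3 library and at 1054 CPM or more in the other POU5F1B libraries; whether its level bears on CHGA and CHGB was not tested.

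**Figure D3:**
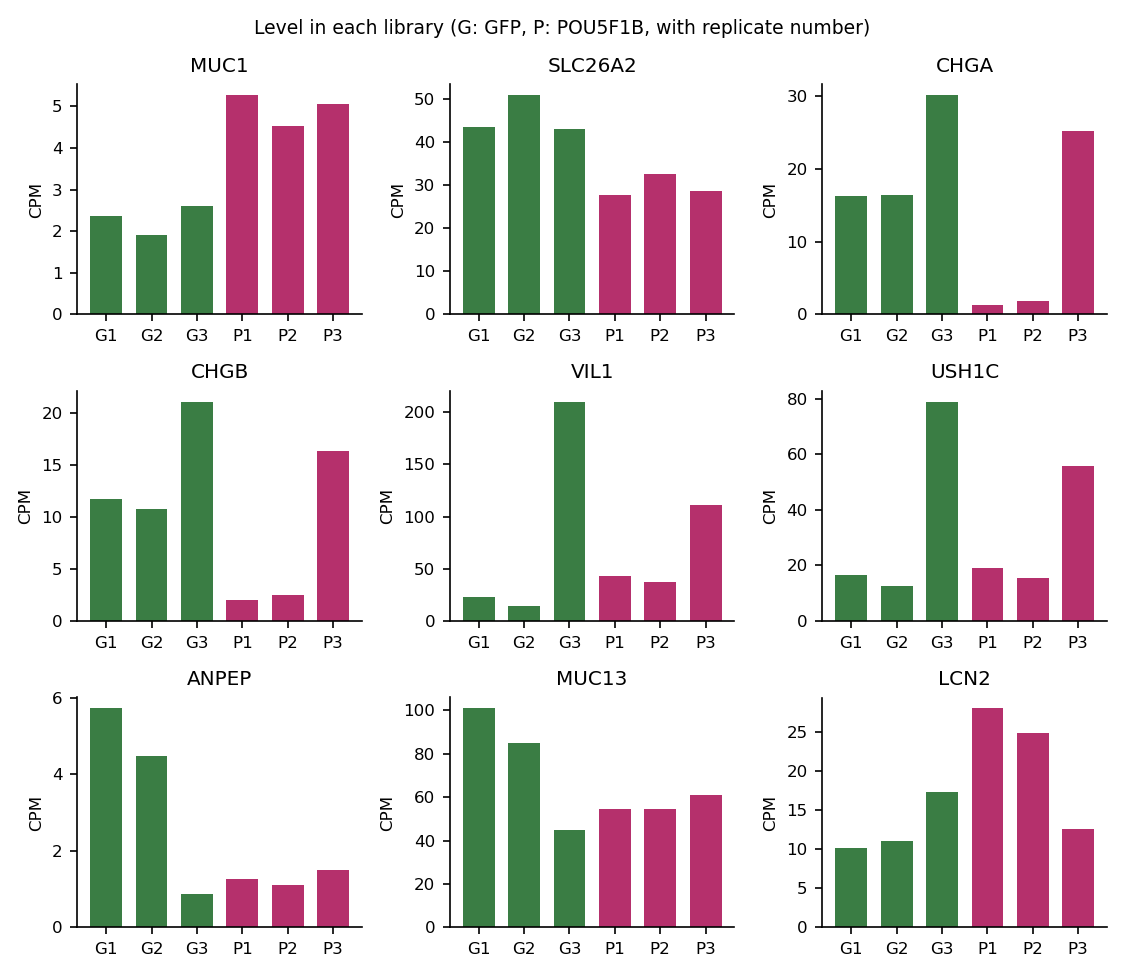
CPM on TMM-scaled library sizes (vertical axes, each from 0) of 9 members in each library, GFP in green (G1 to G3) and POU5F1B in magenta (P1 to P3). MUC1 and SLC26A2 separated the groups in every library, CHGA and CHGB were low in P1 and P2, VIL1 and USH1C were high in G3 and P3, and ANPEP and MUC13 were lowest in G3.

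Replicate 3 differed from replicates 1 and 2 in both groups for part of the list. The surface tetraspanin gene TSPAN8 had 2, 0 and 285 counts in GFP and 1, 0 and 164 in POU5F1B, ratios of replicate 3 to replicates 1 and 2 of 309 (95% counting interval 84.9 to 2567) and 321 (56.7 to 12740). The peptidase gene DPP4 had 0, 0 and 214 counts in GFP, at least 155-fold higher in replicate 3 against a floor of 3 counts over both other libraries, and 0, 1 and 46 counts in POU5F1B. The LI-cadherin gene CDH17 had 0, 0 and 77 counts in GFP and 0, 1 and 24 in POU5F1B. PHGR1 had 0, 0 and 14 counts in GFP and 0, 0 and 13 in POU5F1B.

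Members were detected (at least 1 count) at 22 and 22 in GFP replicates 1 and 2, at 23 and 23 in POU5F1B replicates 1 and 2, and at 33 in each replicate 3 library. Over all identifiers, 20827, 20991 and 21047 were detected in GFP replicates 1, 2 and 3. In POU5F1B replicates 1, 2 and 3 these were 20818, 20385 and 21455. The 8 members below the filter that reached 10 counts in a library (CDHR2, CDHR5, DPP4, ALPI, TFF3, CDH17, TSPAN8 and PHGR1) reached it in replicate 3 libraries. These members were singled out after their values were seen, and no test was made of them. Of the other untested members, LGALS4 and GPA33, both epithelial surface genes, had at most 9 counts and no such form, and FABP2 had at most 7.

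Among the 15 tested members, both replicate 3 libraries lay above the other 4 for VIL1, ESPN, USH1C, CHGA and CHGB, which is 5 members beside 13.8% of all tested genes. Both lay below the other 4 for 1 member, EZR, and for 11% of all genes. By more than 2-fold in both groups, replicate 3 was higher for VIL1 and USH1C (2 members, beside 1.49% of all genes) and lower for none (0.672% of all genes). For VIL1 the ratio of replicate 3 to replicates 1 and 2 was 11.5 in GFP (95% counting interval 10.4 to 12.7) and 2.74 in POU5F1B (2.52 to 2.99), and for USH1C it was 5.46 (4.83 to 6.18) and 3.21 (2.84 to 3.64). MYO1A was 14.0 times higher (8.81 to 23.2) in POU5F1B replicate 3, beside a ratio of 0.643 in GFP. In GFP, replicate 3 coincided with a higher mitochondrial share (8.62%, beside 6.95% to 7.03% in GFP replicates 1 and 2). In POU5F1B this share was 7.32% in replicate 3, beside 7.37% to 7.49% in replicates 1 and 2. There, replicate 3 coincided with the lower level of the POU5F1B transcript. The part of the mitochondrial share or of the POU5F1B level in these values was not tested.

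**Figure D4:**
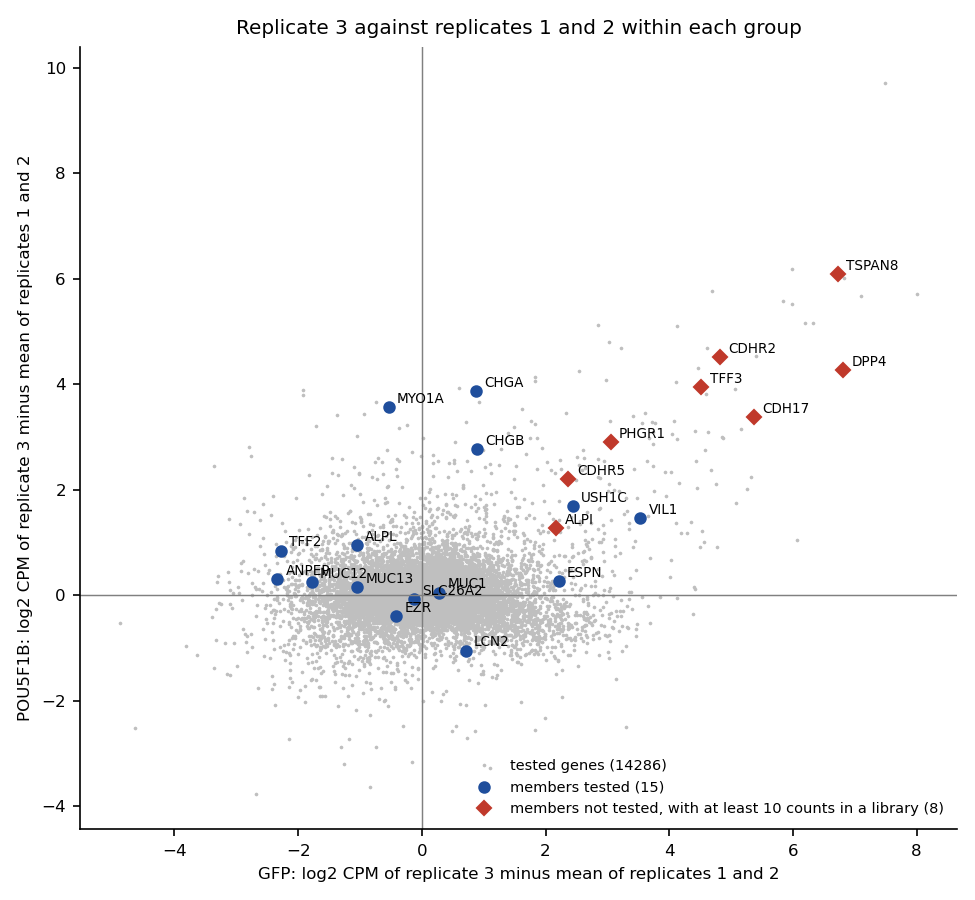
Log2 CPM of replicate 3 minus the mean of replicates 1 and 2, in GFP (horizontal) and POU5F1B (vertical), for the 14286 tested genes (grey), the 15 tested members (blue circles) and the 8 untested members with at least 10 counts in a library (red diamonds). VIL1, USH1C and all 8 untested members lie at the upper right, MYO1A, CHGA and CHGB are raised mainly in POU5F1B, and MUC1 and SLC26A2 lie near the centre.

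The promoter letters of 3 members that stood for these forms are shown, from RefSeq on GRCh38.p14, each spanning the annotated start and mostly upstream of it, with motif matches on either strand in capitals. Searched were the CDX core TTTAT, the TATA box TATAAA, whose letters include the CDX core read on the other strand, and the cAMP response element TGACGTCA. The CHGA window chr14:92922900-92923199 (plus strand) held 1 cAMP response element, where 1.85% of all 35116 promoter windows held at least 1. CHGA was called lower in replicates 1 and 2 but not over all 6 libraries, and this motif was added after the values were seen. For the replicate 3 form, the TSPAN8 window chr12:71157760-71158059 (minus strand) held 3 CDX cores. A second, overlapping TSPAN8 window, chr12:71157950-71158249, held 1 and is not printed. At least 1 CDX core was held by 34.9% of all windows, and the share with 3 is not given here. For groups apart in every library, the MUC1 window chr1:155192866-155193165 (minus strand) held a TATA box, as did 11.5% of all windows.
CHGA: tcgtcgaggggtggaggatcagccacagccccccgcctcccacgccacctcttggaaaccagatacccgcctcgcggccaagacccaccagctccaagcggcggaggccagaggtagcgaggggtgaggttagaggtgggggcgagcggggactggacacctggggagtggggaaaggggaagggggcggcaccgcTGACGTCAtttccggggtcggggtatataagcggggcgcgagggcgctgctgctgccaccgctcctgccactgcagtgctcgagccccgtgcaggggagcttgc
TSPAN8: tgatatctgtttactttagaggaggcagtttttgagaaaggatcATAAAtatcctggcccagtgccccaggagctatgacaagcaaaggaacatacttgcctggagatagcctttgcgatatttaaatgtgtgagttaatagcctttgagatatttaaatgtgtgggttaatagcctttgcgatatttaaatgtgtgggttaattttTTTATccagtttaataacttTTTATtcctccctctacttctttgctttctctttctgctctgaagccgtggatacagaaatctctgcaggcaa
MUC1: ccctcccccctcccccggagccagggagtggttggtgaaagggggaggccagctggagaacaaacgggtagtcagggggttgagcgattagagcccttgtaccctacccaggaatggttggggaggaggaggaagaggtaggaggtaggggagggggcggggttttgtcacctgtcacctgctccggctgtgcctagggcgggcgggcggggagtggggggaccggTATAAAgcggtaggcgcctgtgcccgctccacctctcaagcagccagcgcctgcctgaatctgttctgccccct
Of the 42 matched members, 30 had a window, with 38 windows in all, of which 18 held the CDX core, 8 the TATA box, 3 the cAMP response element (CHGA, MUC13 and USH1C) and 2 the HNF4A letters CAAAGTCCA (MUC13 and MYO1A; 0.384% of all windows). These matches are descriptions of letters and not of binding, and no link between them and the changes in level was tested.

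Other genes of the same programmes were read from the same fit. Of 62 matched genes for microvilli, colonocytes, goblet and enteroendocrine cells, 23 were tested and 0 were called over all 6 libraries. At an unadjusted p under 0.05 in limma voom, 2 were higher and 3 lower, beside 6.07% and 5.82% of all tested genes. In replicates 1 and 2, EPS8, COBL, SCNN1A and MUC4 were called higher and FSCN1, HSD17B2, SLC16A1, SCG3 and PCSK1N lower. The shares of all tested genes called there were 3.21% higher and 5.15% lower. SCG3, a granule sorting protein gene, had 47, 77 and 175 counts in GFP and 4, 6 and 80 in POU5F1B, so that POU5F1B replicates 1 and 2 were the lowest libraries, as for CHGA and CHGB. EPS8, which caps microvillus actin, had 49, 51 and 829 counts in GFP and 107, 92 and 267 in POU5F1B, with replicate 3 highest in both groups as for VIL1. SCNN1A, a subunit of the epithelial sodium channel, gave 25.1, 18.9 and 65.9 CPM in GFP and 83.2, 77.2 and 66.8 CPM in POU5F1B (log2 fold change 1.28 ± 0.40, adjusted p = 0.317, limma voom; 1.87 ± 0.14 in replicates 1 and 2). HSD17B2, a steroid dehydrogenase gene, had 138, 158 and 30 counts in GFP and 19, 15 and 17 in POU5F1B (-2.31 ± 0.73, adjusted p = 0.317; -3.01 ± 0.29 in replicates 1 and 2), with GFP replicate 3 nearer to the POU5F1B libraries, as for ANPEP. FSCN1, the gene of the actin bundler fascin, gave 74.7, 64.9 and 80.6 CPM in GFP and 27.0, 22.1 and 59.1 CPM in POU5F1B (-1.14 ± 0.33, adjusted p = 0.294; -1.51 ± 0.14 in replicates 1 and 2). CDH1, the E-cadherin gene, belongs to the epithelial markers and not to these 62 genes. CDH1 gave 33.6, 30.1 and 72.5 CPM in GFP and 164, 158 and 98.1 CPM in POU5F1B. Its log2 fold change was 1.71 ± 0.36 (adjusted p = 0.207, limma voom), and 2.33 ± 0.11 in replicates 1 and 2.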

How the data were processed

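Per the labels and the study's methods, poly(A) RNA of transduced SW480 cells was made into stranded libraries, and the authors deposited one table of raw whole-number counts per gene for each library. Reads were aligned to hg19 with HISAT2 and uniquely mapped reads were assigned with featureCounts; the strand setting and gene release were not given in the sources used here. Genes overlapping on opposite strands are therefore uncertain.

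Group and replicate number were read from the sample titles. Low genes were removed by filterByExpr (edgeR 4.0.16; 14286 kept) and libraries were scaled by TMM. Differences were tested with voom in limma 3.58.1 (R 4.3.3) over all tested genes, with Benjamini-Hochberg adjustment; called genes had an adjusted p below 0.05 and changed more than 2-fold. Errors on log2 fold changes are standard errors of that fit. Log2 CPM used a prior count of 2. The fits were also run on simulated data, the outcome of which is not given here and is not used as support. Same-numbered libraries were not treated as pairs: the correlations of their deviations were 0.242, 0.088 and 0.165. Gene symbols matched 87.4% of identifiers. Gene positions are from a GENCODE annotation lifted to hg19, and promoter letters from RefSeq on GRCh38.p14; no coordinates were converted.

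The members, lists and tests were chosen with earlier results of these data known. Values of every library were given for members called or with an unadjusted p under 0.05 or groups apart over all 6 libraries, for those called in replicates 1 and 2, and for the 6 with the highest level per kilobase; the members high in replicate 3 and the cAMP response element were added after the values were seen. Intervals on ratios of counts are exact at 95% and, like the floor of 3 counts, cover counting error only, since reads are not independent molecules. Alternatives were edgeR's quasi-likelihood test, DESeq2 1.42.0, sample quality weights, 3 other scalings, 2 other filters, a replicate block, replicates 1 and 2 only and leaving out each library.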

Additional observations from a re-analysis of the deposited data

How the results depend on the processing

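Over 13 named members and 16 alternative settings, 176 of the 208 fold changes kept direction and call, 20 kept direction and became called, and 12 turned direction. The 176 include CHGA in DESeq2, which had no adjusted p-value there and could not be called. Among the 12, MYO1A in replicates 1 and 2 both turned direction and became called. VIL1 turned to -0.37 in edgeR and -0.35 in DESeq2; USH1C to -0.26, -0.24 and, under the replicate block, -0.14; MYO1A to -0.78 with sample quality weights and -1.21 in replicates 1 and 2. Leaving out 1 library at a time gave -0.29 to 1.65 for VIL1, -0.54 to 0.82 for USH1C and -0.997 to 0.94 for MYO1A. Genes called numbered 0 in the main test, 232 in DESeq2, 1077 with quality weights, 4 with all genes of at least 1 count, 1 under the replicate block, 1194 in replicates 1 and 2, and 0 to 595 with 1 library left out (595 without GFP replicate 3, 5 without POU5F1B replicate 3). Members called numbered 0, against 1 in DESeq2 (MUC1), 8 with quality weights, 9 in replicates 1 and 2 and 0 to 3 with 1 library left out. In the main test 3 of 15 members had an unadjusted p under 0.05, beside 6.07% of all tested genes higher and 5.82% lower. The 3 became 11 with quality weights, 5 with all genes of at least 1 count and 12 in replicates 1 and 2. With 1 library left out they were 2 to 8 (8 without GFP replicate 3, 6 without POU5F1B replicate 3). The shares of all tested genes at that p in these other settings are not given here, so whether the members stood out from them was not tested. Members with groups apart numbered 2 of 15 (13.3%, beside 19.4% of all tested genes), 13 in replicates 1 and 2 (86.7%, beside 66.3%), and 2 to 8 with 1 library left out (13.3% to 53.3%, beside 22.3% to 48.8%). The members' median moved from 0.25 to -0.26 in edgeR, -0.24 in DESeq2, -0.34 with quality weights, -0.62 in replicates 1 and 2, and -0.41 to 0.38 with 1 library left out. Of the 9 members called in replicates 1 and 2, 6 to 8 were called with 1 of these 4 libraries left out, where the lone library of a group is assumed to vary like the other group, 6 in DESeq2 and 9 in edgeR, and no other member was called; these alternatives were chosen after seeing the data. The cause of these shifts was not tested. What the replicate numbers mark was not stated, same-numbered libraries were not treated as pairs, and the replicate block changed no member's call. For members with few counts in every library, the depth limits which differences can be detected.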
